A study of Homo sapiens with 18 samples.

Results

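The genes described here are 34 genes of cholesterol and fatty acid synthesis, taken from a fixed list of gene symbols out of the 58302 genes in the expression table. All 34 symbols matched 1 Ensembl gene each. The list holds 24 sterol genes and 10 fatty acid genes, which are reported apart. They were measured in PANC-1 cells, an established line from a human pancreatic ductal carcinoma, carrying by lentivirus either a control short hairpin RNA construct (shCtrl) or a construct with a hairpin against NAT10 (shNAT10). The labels call the control an empty vector, while the construct list of the study names a non-targeting hairpin, so whether the control carries a hairpin is not settled. NAT10 is the acetyltransferase that writes N4-acetylcytidine (ac4C) on RNA. RNA-seq was made from 3 libraries per group, and acRIP-seq, in which RNA fragments bound by an ac4C antibody (IP) are compared with unselected fragments (input), from 3 IP and 3 input libraries per group. Both groups are the same cell line under the same vector system, and the labels give neither the number of clones nor whether replicates were separate cultures, so that p-values measure the spread between these libraries, which may be technical.

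Cholesterol is built from acetyl-CoA through mevalonate, the isoprenoid farnesyl diphosphate, squalene and lanosterol, in a chain of enzymes that sit mostly on the endoplasmic reticulum. Fatty acids start from the same acetyl-CoA, which is carboxylated, assembled into palmitate and then elongated, desaturated and activated. Many genes of both chains are known targets of the SREBP transcription factors, which are released by proteolysis when sterols are low, and which the INSIG proteins hold back when sterols are high.

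NAT10 itself was checked first. Its expression was 31.6, 27.7 and 28.6 FPKM (fragments scaled by gene length and library depth) in the shCtrl libraries and 7.92, 8.43 and 7.90 FPKM in the shNAT10 libraries, so the groups did not overlap. Its log2 fold change was -1.84 (SE 0.0762, adjusted p = 3.85e-05, limma with Benjamini-Hochberg adjustment over all tested genes), and the exact two-sided permutation test of 3 against 3 gave p = 0.10, the smallest it allows. Depth was 15831720 to 23521762 reads counted on genes per library. The libraries differed in one technical respect that touches the values below. shCtrl replicate 2 lay farther from its group than any other library, with a median absolute log2 deviation of 0.170 against 0.0497 to 0.126 in the other 5, and its deviations ran with GC content (r = 0.391 across genes, which are not independent replicates). It was the shCtrl library farthest from the group median for 27 of the 33 tested members, against 63.7% of all tested genes. The cell line was checked by markers. All 6 epithelial markers were expressed, with summed levels of 2792 to 3753 FPKM in shCtrl and 1497 to 1678 FPKM in shNAT10. KRT8 and KRT18 held most of these sums, with means of 1739 and 1131 FPKM in shCtrl and 766.3 and 627 FPKM in shNAT10. Of 17 markers of other cell types, 14 were under 1 FPKM in every library and 6 were at 0 everywhere. The exceptions were COL1A1, SYP and CD14. Their means were 31.1, 5.24 and 2.53 FPKM in shCtrl and 19.2, 3.23 and 1.46 FPKM in shNAT10. COL1A1 was above the epithelial markers KRT7 and CDH1 in every library. In a bulk measurement, fewer cells expressing a gene and less RNA per cell cannot be told apart.

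Of the 34 genes, 33 passed the filter of at least 1 FPKM in at least 3 libraries and were tested on log2(FPKM + 0.1), the scale of every fold change below. The exception was CYP51A1. Of the 23 tested sterol genes, 5 were called lower and 7 higher in shNAT10 at an adjusted p under 0.05, which is 21.7% and 30.4% of them. Of all 12982 tested genes, 21.2% were called lower and 20.8% higher at the same threshold. Of the 10 fatty acid genes, 3 were called lower and none higher by limma, while 7 did not pass the test. At an unadjusted p under 0.05, 1 of them (ACACA) was higher. limma's voom on the recovered reads gave the same numbers, 5 lower and 7 higher sterol genes and 3 lower and 0 higher fatty acid genes. The median log2 fold change was 0.07 for the sterol genes, -0.12 for the fatty acid genes and -0.01 for all tested genes. The fatty acid shares are 30% lower and 0% higher. Neither list was tested as a set, and the genes are described step by step below. One member, TM7SF2, passed a log2 fold change of -1, and none passed 1. Among all tested genes these shares were 3.57% and 2.91%. The values of the groups did not overlap for 9 members that were lower and 10 that were higher in shNAT10, against 28.6% and 27.9% of all tested genes. Of these, 5 lower and 9 higher were sterol genes, and 4 lower and 1 higher were fatty acid genes.

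The summed FPKM of the whole sterol set, not scaled to the total FPKM of each library, differed little between the groups. Summed over the 24 genes, the libraries held 844.3, 922.7 and 872.1 FPKM in shCtrl and 898.1, 915.7 and 880.1 FPKM in shNAT10. The groups overlapped through shCtrl replicate 2 alone, since the other controls lay below every shNAT10 library. That library also had the highest FPKM sum over all genes. These totals were 347900, 390800 and 361200 in shCtrl and 340200, 341600 and 337400 in shNAT10. The sterol sums are therefore not on equal totals, and a shift in their share of the total is not excluded. DHCR7, the reductase of the last step to cholesterol, had the highest level of them in both groups, with 142 ± 4.49 FPKM (SD, n = 3) in shCtrl and 149 ± 5.03 FPKM in shNAT10. FDPS, SREBF1, MSMO1, IDI1 and NSDHL followed in shCtrl, between 53.4 and 64.6 FPKM. The plot of sterol gene expression by library shows that the larger changes were spread over the chain.

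**Figure D1:**
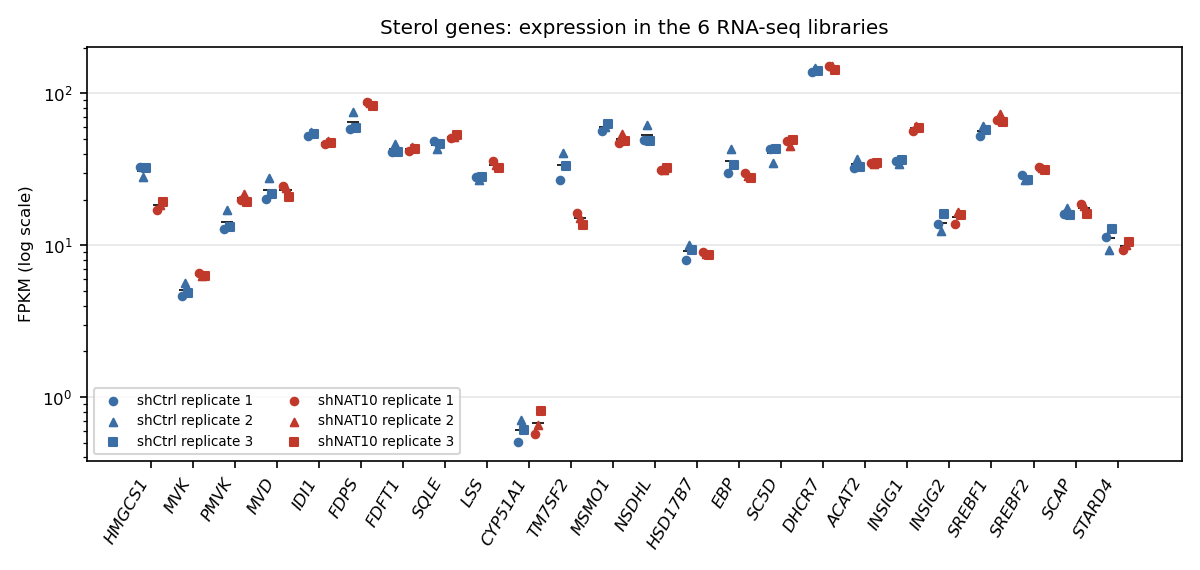
FPKM (log axis) of the 24 sterol genes in pathway order; each point is 1 library, with shape for the replicate, and short lines are group means of 3 libraries. HMGCS1, TM7SF2 and NSDHL sit lower and INSIG1 higher in all 3 shNAT10 libraries, and CYP51A1 stays under 1 FPKM.

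The sequences before the start sites of 6 sterol genes are shown because these genes span the directions seen in the chain (INSIG1, SREBF2 and MVK higher, HMGCS1, MSMO1 and NSDHL lower) and because elements near the start are where the SREBP factors and NF-Y are known to act. The 250 bases before the start are given 5′ to 3′ on the strand of the gene, from RefSeq on GRCh38.p14, with capitals for matches to the sterol element written as TCACNCCA, to the E-box CACGTG and to the CCAAT box, on either strand (the reverse of CCAAT reads ATTGG). The windows are chr7:155297628-155297877 (plus strand) for INSIG1, chr22:41832855-41833104 (plus) for SREBF2, chr12:109573544-109573793 (plus) for MVK, chr5:43313413-43313662 (minus) for HMGCS1, chr4:165327419-165327668 (plus) for MSMO1 and chrX:152830813-152831062 (plus) for NSDHL.
INSIG1: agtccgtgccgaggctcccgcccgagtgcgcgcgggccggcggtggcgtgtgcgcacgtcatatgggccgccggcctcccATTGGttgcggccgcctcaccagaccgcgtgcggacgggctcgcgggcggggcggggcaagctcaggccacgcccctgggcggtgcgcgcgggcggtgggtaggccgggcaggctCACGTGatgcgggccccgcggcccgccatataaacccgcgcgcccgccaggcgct
SREBF2: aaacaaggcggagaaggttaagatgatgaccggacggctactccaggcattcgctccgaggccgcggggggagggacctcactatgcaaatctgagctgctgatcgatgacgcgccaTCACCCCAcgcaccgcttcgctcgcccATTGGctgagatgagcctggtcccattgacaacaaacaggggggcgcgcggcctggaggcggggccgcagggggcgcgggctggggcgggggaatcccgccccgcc
MVK: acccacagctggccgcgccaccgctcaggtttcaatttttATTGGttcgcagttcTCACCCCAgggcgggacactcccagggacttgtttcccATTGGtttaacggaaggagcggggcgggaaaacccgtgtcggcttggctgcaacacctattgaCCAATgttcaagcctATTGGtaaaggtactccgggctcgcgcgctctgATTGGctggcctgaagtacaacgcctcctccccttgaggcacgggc
HMGCS1: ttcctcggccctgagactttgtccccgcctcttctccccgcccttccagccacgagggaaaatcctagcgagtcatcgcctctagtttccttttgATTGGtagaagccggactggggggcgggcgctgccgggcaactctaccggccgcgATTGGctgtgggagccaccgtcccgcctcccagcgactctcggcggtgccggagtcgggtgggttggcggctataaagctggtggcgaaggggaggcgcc
MSMO1: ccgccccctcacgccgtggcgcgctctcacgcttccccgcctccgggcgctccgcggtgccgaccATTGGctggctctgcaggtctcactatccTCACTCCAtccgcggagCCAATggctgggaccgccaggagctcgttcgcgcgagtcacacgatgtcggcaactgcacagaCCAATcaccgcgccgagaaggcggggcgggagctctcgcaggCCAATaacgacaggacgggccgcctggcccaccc
NSDHL: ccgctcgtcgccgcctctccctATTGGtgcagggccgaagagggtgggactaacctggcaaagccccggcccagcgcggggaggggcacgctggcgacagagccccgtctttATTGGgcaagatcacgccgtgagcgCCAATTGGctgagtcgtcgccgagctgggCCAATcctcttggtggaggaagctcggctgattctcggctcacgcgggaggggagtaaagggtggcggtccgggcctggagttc

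The RefSeq promoter table, which adds 50 transcribed bases to each such window, held 30 of the 34 members. ACAT2, FASN, FDFT1 and SQLE had no entry. The element TCACNCCA was found in 3 of the 30 promoters, those of MVK, MSMO1 and SREBF2, whose first bases lie at -195, -156 and -133 relative to the start site, and in 3.95% of all 34943 promoters. Of these, only the SREBF2 window also held the longer form TCACNCCAC, which 1.12% of all promoters held and which contains the shorter one. The E-box was found in LSS, SC5D, INSIG1 and SCAP, against 7.23% of all promoters. A CCAAT box was found in 19 of the 30, 15 of 21 sterol and 4 of 9 fatty acid genes, against 34.6% of all promoters. MVK and NSDHL held 5 matches each, of which 2 in NSDHL overlap as CCAATTGG. The GC box GGGCGG was found in 26 of the 30, against 44.9% of all promoters. For each member 1 window was taken, while the shares of all promoters count every window, also where a gene has several. They are not limited to tested genes, so the sets are unlike. Of the genes with the sterol element, MVK and SREBF2 were called higher and MSMO1 lower. These calls held in 1, 2 and 3 of the 6 fits that leave out 1 library. A part of the element in these values was not tested. A match of letters is not a binding site, and no factor was measured here.

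The mevalonate arm, from acetyl-CoA to farnesyl diphosphate, was called in both directions. HMGCS1, which condenses acetyl-CoA with acetoacetyl-CoA to HMG-CoA (chr5, minus strand), was 32.8, 28.1 and 32.3 FPKM in shCtrl and 17.2, 18.5 and 19.3 FPKM in shNAT10. Every shNAT10 library lay below every shCtrl library. The log2 fold change was -0.76 (SE 0.0858, adjusted p = 0.00076, limma), a level 0.592 times that of shCtrl. PMVK, the kinase that adds the second phosphate to mevalonate, was 12.8, 17.0 and 13.1 FPKM in shCtrl and 19.8, 21.8 and 19.3 FPKM in shNAT10. Its groups did not overlap although shCtrl replicate 2 lay nearest to them, and it rose by 0.51 on the log2 scale (SE 0.119, adjusted p = 0.0134, limma). FDPS, which joins the isoprene units to farnesyl diphosphate, was 58.6, 75.8 and 59.4 FPKM in shCtrl and 87.5, 86.8 and 83.1 FPKM in shNAT10. It rose by 0.42 (SE 0.107, adjusted p = 0.0186, limma), again with shCtrl replicate 2 as the highest control. MVK, the first kinase of mevalonate, rose by 0.34 (adjusted p = 0.0286, limma) from 5.05 ± 0.557 to 6.39 ± 0.178 FPKM (SD, n = 3 libraries each).

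IDI1, the isomerase that makes the reactive isoprene unit, fell by 0.19 on the log2 scale (adjusted p = 0.0359, limma), from 54.2 ± 1.57 to 47.3 ± 1.15 FPKM (SD, n = 3). The changes of MVD, the decarboxylase, and ACAT2, the cytosolic thiolase that makes acetoacetyl-CoA, were below 0.03 in size on the log2 scale and were not called. Thus HMGCS1 and IDI1 were lower while both mevalonate kinases and the farnesyl diphosphate synthase were higher. The HMGCS1 call held without each of the 6 libraries. The calls of PMVK were lost without shCtrl replicate 3 or shNAT10 replicate 2 (adjusted p = 0.0526 and 0.0562, limma), and those of FDPS without shCtrl replicate 3 or any shNAT10 library (0.0534 to 0.0701). The call of IDI1 was lost without the same 4 libraries (0.0939 to 0.133), and that of MVK without any library other than shCtrl replicate 2 (0.0619 to 0.0993). Without the filter on expression, the calls of IDI1 (0.0525) and MVK (0.0627) were lost, and that of IDI1 also with no mean-variance trend (0.0622) and with TPM (log2 fold change -0.09, adjusted p = 0.248). With the replicate block, IDI1 (0.0679) and MVK (0.0506) were not called. For MVD, leaving out shCtrl replicate 2 or shNAT10 replicate 3 turned the sign to 0.13 and 0.07, uncalled.

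The exons of several of these genes share bases with genes on the opposite strand, 52.3% of those of ACAT2, 18.6% of FDPS, 15.0% of HMGCS1 and 14.8% of IDI1. The kit keeps strand, but whether the counting used it is not given in the sources used here. The opposite genes of FDPS and IDI1, RUSC1-AS1 and IDI2-AS1, were at most 1.26 and 0.703 FPKM, while TCP1, opposite ACAT2, was 135 to 180 FPKM, so the value of ACAT2 is uncertain. Reads could also be split with 8 processed pseudogenes of FDPS, none of which exceeded 0.429 FPKM.

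Between squalene and cholesterol, the calls lay at the cyclase and at the removal of the sterol methyl groups. LSS, which closes squalene epoxide to lanosterol, was 28.3, 27.0 and 28.1 FPKM in shCtrl and 35.6, 33.9 and 32.2 FPKM in shNAT10. It rose by 0.29 (SE 0.0664, adjusted p = 0.0134, limma). TM7SF2, a C14 sterol reductase, was 27.0, 40.4 and 33.3 FPKM in shCtrl and 16.2, 15.2 and 13.6 FPKM in shNAT10. The shCtrl libraries differed among themselves, but the lowest of them lay well above all shNAT10 libraries. The log2 fold change was -1.14 (SE 0.148, adjusted p = 0.00128, limma), the farthest from 0 of all members. NSDHL, a dehydrogenase of C4 demethylation on chromosome X, was 49.4, 62.0 and 48.9 FPKM in shCtrl and 31.1, 31.3 and 32.1 FPKM in shNAT10. The groups did not overlap, the shNAT10 libraries lying within about 1 FPKM of each other, and the log2 fold change was -0.75 (SE 0.101, adjusted p = 0.00147, limma). MSMO1, the C4 methyl oxidase that works before NSDHL, fell by 0.26 (SE 0.0771, adjusted p = 0.0304, limma), from 59.9 ± 3.09 to 49.9 ± 3.55 FPKM (SD, n = 3).

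FDFT1, squalene synthase, had 42.9 ± 3.05 FPKM in shCtrl and 43.0 ± 1.15 FPKM in shNAT10 and was not called. SQLE, the epoxidase before LSS, lay higher in all shNAT10 libraries (51.1 to 53.0 against 42.8 to 48.7 FPKM), yet its log2 fold change of 0.18 missed the threshold (adjusted p = 0.0793, limma). SC5D, a desaturase late in the chain, behaved alike with 0.24 (adjusted p = 0.0854, limma). Neither DHCR7 nor HSD17B7, the ketoreductase of C4 demethylation, was called, with log2 fold changes of 0.07 and -0.03. EBP, the sterol isomerase, had overlapping groups and a log2 fold change of -0.29 (adjusted p = 0.111, limma). Its spread came from shCtrl replicate 2 at 43.2 FPKM, against 30.04 and 33.96 in the other controls and 27.9 to 30.1 in shNAT10, and without that library the log2 fold change was -0.15 (adjusted p = 0.102, limma). CYP51A1, the C14 demethylase that works before TM7SF2, was listed at 0.503 to 0.708 FPKM in shCtrl and 0.571 to 0.811 FPKM in shNAT10, from 28 to 46 recovered reads. Of its exon bases, 79.4% are shared on the same strand with 2 other genes of GENCODE v29, AC000120.2 and AC000120.3. Neither was found in the expression table, so whether reads were lost to them as ambiguous is not shown. The level of CYP51A1 is uncertain.

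The TM7SF2 and NSDHL calls held without each library. The LSS call was lost without shNAT10 replicate 1 or 2 (adjusted p = 0.0636 and 0.0589, limma), and the MSMO1 call without shCtrl replicate 3 or shNAT10 replicate 1 or 3 (0.111 to 0.117). MSMO1 was also not called with no filter on expression (0.0587), with no mean-variance trend (0.0505) and with TPM (log2 fold change -0.16, adjusted p = 0.147). Without shCtrl replicate 1, SQLE (0.0426) and EBP (0.0258) passed the threshold. FDFT1 turned to -0.02 without shCtrl replicate 1, to -0.03 without shCtrl replicate 3 and to -0.02 without shNAT10 replicate 2, and HSD17B7 to 0.03 without shCtrl replicate 2, all uncalled.

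Among the genes that sense and move sterols, 3 of 6 (50%) were called, all higher, against 20.8% of all tested genes. INSIG1, which retains the SREBP precursors in the endoplasmic reticulum and is itself a known SREBP target, was 36.0, 34.4 and 36.2 FPKM in shCtrl and 56.6, 61.1 and 59.1 FPKM in shNAT10. The groups lay far apart, with little spread in either. The log2 fold change was 0.73 (SE 0.0627, adjusted p = 0.000272, limma), a level 1.66 times that of shCtrl and the highest rise among the members. SREBF1, the gene of the factor known mostly for fatty acid synthesis, was 52.4, 60.6 and 57.8 FPKM in shCtrl and 66.6, 73.5 and 65.1 FPKM in shNAT10. It rose by 0.27 (SE 0.0824, adjusted p = 0.0376, limma). SREBF2, the gene of the factor known mostly for sterol synthesis, was 28.98, 26.9 and 26.9 FPKM in shCtrl and 32.9, 32.1 and 31.1 FPKM in shNAT10. It rose by 0.22 (SE 0.0648, adjusted p = 0.0332, limma).

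INSIG2, the second retention protein, SCAP, the sterol sensor that carries the SREBP precursors, and STARD4, a cytosolic sterol carrier, were not called, with log2 fold changes of 0.13, 0.09 and -0.15. INSIG1 rose and HMGCS1 fell. Both are known SREBP targets, and the activity of the SREBP factors was not measured. The INSIG1 call held without each library. The SREBF1 call was lost without any library other than shCtrl replicate 2 (adjusted p = 0.0735 to 0.144, limma), and the SREBF2 call without shCtrl replicate 3 or any shNAT10 library (0.0830 to 0.123). SREBF1 was also not called with no filter on expression (0.0753) and with no mean-variance trend (0.0603), and SREBF2 with no mean-variance trend (0.0537) and with the replicate block (0.0569). STARD4 was called lower without shCtrl replicate 2, with a log2 fold change of -0.28 (adjusted p = 0.0244, limma).

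**Figure D2:**
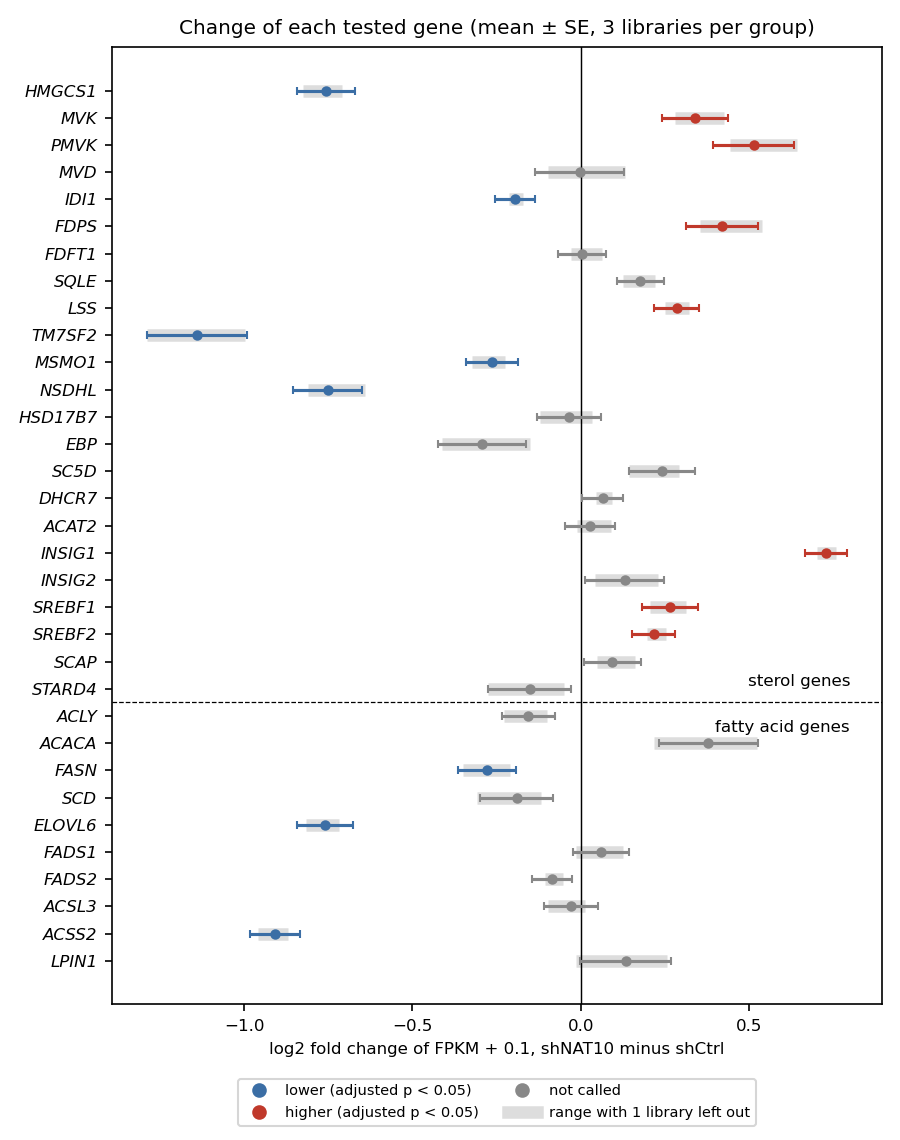
Log2 fold change of FPKM + 0.1 (shNAT10 minus shCtrl) of the 33 tested genes in pathway order; points are estimates, bars are standard errors from limma, colours give the call at an adjusted p under 0.05, and grey bands span the values with each library left out in turn. TM7SF2 at -1.14 and INSIG1 at 0.73 mark the ends. The bands stay clear of 0 for every called gene and for some that were not called, such as SQLE and EBP.

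The fatty acid genes were summed in the same way, with 2676, 2134 and 2568 FPKM in shCtrl and 2178, 2146 and 2195 FPKM in shNAT10. Most of this was SCD, the stearoyl-CoA desaturase that makes oleate, with 1981, 1523 and 1912 FPKM in shCtrl and 1566, 1545 and 1604 FPKM in shNAT10. The groups of SCD overlapped through shCtrl replicate 2, and the log2 fold change of -0.19 was not called (SE 0.107, adjusted p = 0.194, limma). Without that library it was -0.31 (adjusted p = 0.00107, limma). FADS2, FASN, ACLY and FADS1 followed in shCtrl, between 93.7 and 194 FPKM, and the other 5 lay between 11.1 and 41.1 FPKM. The plot of fatty acid gene expression by library shows the level of SCD apart from the rest and shCtrl replicate 2 below the other controls for most genes.

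**Figure D3:**
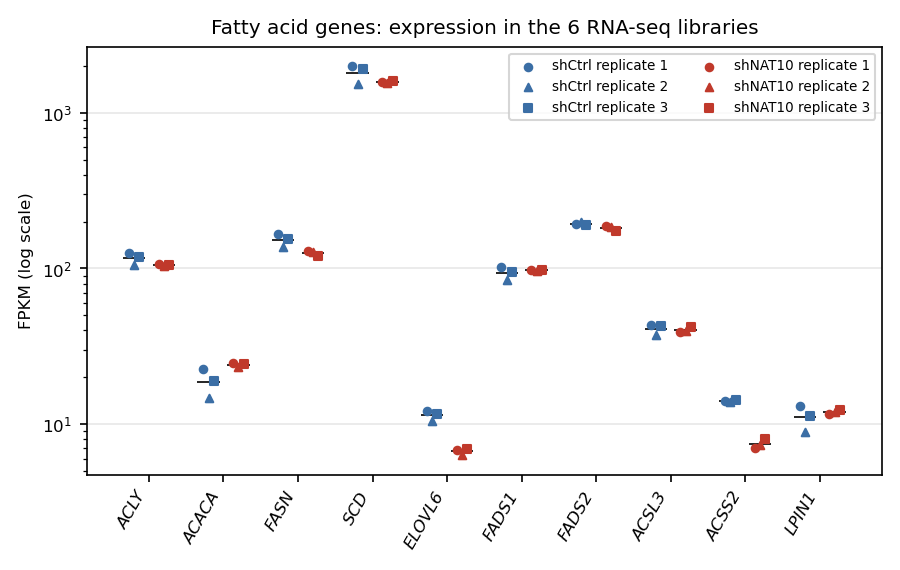
FPKM (log axis) of the 10 fatty acid genes; each point is 1 library, with shape for the replicate, and short lines are group means of 3 libraries. ACSS2 and ELOVL6 sit lower in all 3 shNAT10 libraries, and SCD is at 1523 FPKM or more in every library.

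Genes that supply acetyl-CoA and build palmitate differed among themselves. ACSS2, which makes cytosolic acetyl-CoA from acetate, was 14.1, 13.9 and 14.3 FPKM in shCtrl and 7.07, 7.34 and 7.99 FPKM in shNAT10. Both groups were tight and far apart. The log2 fold change was -0.91 (SE 0.0736, adjusted p = 0.000226, limma), a level 0.533 times that of shCtrl. ACLY, which makes the same acetyl-CoA from citrate, was 126, 106 and 119 FPKM in shCtrl and 107, 103 and 105 FPKM in shNAT10. Its groups overlapped and its log2 fold change of -0.16 was not called (adjusted p = 0.154, limma), but without shCtrl replicate 2 it was -0.23 and called (adjusted p = 0.00497). FASN, the synthase that assembles palmitate, was 168, 138 and 154 FPKM in shCtrl and 130, 128 and 120 FPKM in shNAT10. It fell by 0.28 on the log2 scale (SE 0.0856, adjusted p = 0.0366, limma), a call that was lost without any library other than shCtrl replicate 2 (0.0672 to 0.136). It was also lost with no filter on expression (0.0892), with no mean-variance trend (0.0593), with quantile normalization (log2 fold change -0.19, adjusted p = 0.257) and with TPM (-0.17, adjusted p = 0.252, limma).

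ACACA, the carboxylase that makes malonyl-CoA, went the other way. It was 22.5, 14.7 and 19.0 FPKM in shCtrl and 24.6, 23.3 and 24.2 FPKM in shNAT10, with no overlap. The log2 fold change of 0.38 (SE 0.146) missed the threshold (adjusted p = 0.0746, limma) and passed it at 0.52 without shCtrl replicate 1 (adjusted p = 0.0126). With 14.7 FPKM, shCtrl replicate 2 lay below the other controls, and without it the log2 fold change was 0.22 (adjusted p = 0.0502, limma).

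Among the genes of elongation, desaturation and activation, 1 of 6 (16.7%) was called, and it was lower, against 21.2% of all tested genes. ELOVL6, the elongase of palmitate, was 12.1, 10.6 and 11.7 FPKM in shCtrl and 6.84, 6.34 and 6.96 FPKM in shNAT10. The groups did not overlap, and the log2 fold change was -0.76 (SE 0.0829, adjusted p = 0.000647, limma), a level 0.591 times that of shCtrl. FADS1 and FADS2, the front-end desaturases of polyunsaturated fatty acids, ACSL3, an acyl-CoA synthetase, and LPIN1, a phosphatidate phosphatase, had log2 fold changes between -0.09 and 0.13 and were not called. For FADS2 the groups did not overlap (190 to 198 against 175 to 188 FPKM), but the difference was small (adjusted p = 0.295, limma). FADS1 and LPIN1 turned to -0.01 without shCtrl replicate 2, and ACSL3 to 0.01 without shCtrl replicate 1. The pseudogene SCDP1 was at 1.37 to 2.72 FPKM, far under SCD.

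Of the 15 calls among the members, 6 held without each of the 6 libraries, namely HMGCS1, TM7SF2, NSDHL, INSIG1, ACSS2 and ELOVL6. Leaving out 1 library gave 3 to 6 sterol genes lower and 1 to 7 higher, with the lowest number of rises without shNAT10 replicate 2, and 2 to 5 fatty acid genes lower, with the highest number without shCtrl replicate 2. The same change of libraries moved the calls over all tested genes between 1765 and 3318 lower and between 1774 and 3303 higher. When each library was corrected for transcript length and GC content, a setting chosen after seeing the data, 6 sterol genes were lower and 12 higher, and 6 fatty acid genes were lower and 1 higher, while the shares over all genes were 26.0% and 26.9%. As shares these are 26.1% lower and 52.2% higher of the sterol genes and 60% lower and 10% higher of the fatty acid genes.

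The rest of lipid metabolism was described by lists drawn up around these genes, whose counts stand against 21.2% lower and 20.8% higher of all tested genes. The first was the isoprenoid branch, which takes farnesyl diphosphate to ubiquinone, dolichol and prenylated proteins. Its list also held LBR, which is not of that branch but a C14 sterol reductase like TM7SF2. LBR was not called (log2 fold change -0.10, adjusted p = 0.497, limma). Of the 12 tested genes of this list, LBR included, 3 were lower and 2 higher (25% and 16.7%). ICMT, the methyltransferase of prenylated proteins, rose from 17.5 ± 0.332 to 37.2 ± 1.11 FPKM (SD, n = 3), by 1.08 on the log2 scale, and PDSS2, a subunit of the enzyme for the ubiquinone side chain, by 0.89. RCE1, the protease of prenylated proteins, fell by 0.70, and PDSS1, the other subunit of the PDSS2 enzyme, by 0.51. The PDSS1 call was lost without shCtrl replicate 3 or shNAT10 replicate 1 or 2 (adjusted p = 0.0666 to 0.0675, limma).

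Of 13 genes that process, degrade or assist the SREBP factors, 2 were lower and 3 higher (15.4% and 23.1%). ERLIN1 and ERLIN2, membrane proteins known to assist the degradation of sterol-regulated proteins, rose by 0.89 and 1.51, the latter from 1.28 ± 0.163 to 3.83 ± 0.212 FPKM (SD, n = 3). NFYC, a subunit of the CCAAT-binding factor NF-Y, fell by 0.33, a call that was lost without shCtrl replicate 3 or any shNAT10 library (adjusted p = 0.0880 to 0.0936, limma). Of 14 genes of sterol transport and storage, 6 were lower and 1 higher (42.9% and 7.14%), with a median log2 fold change of -0.25. NCEH1, a hydrolase of cholesterol esters, fell by 1.53 from 54.5 ± 10.3 to 18.7 ± 1.21 FPKM (SD, n = 3), and OSBP, an oxysterol-binding transfer protein, rose by 0.69.

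Around the fatty acid genes, 8 of 21 tested genes of other fatty acid synthesis were lower and 2 higher (38.1% and 9.52%), with a median log2 fold change of -0.14. ACSS1, the mitochondrial relative of ACSS2, fell by 1.31 from 11.9 ± 0.909 to 4.74 ± 0.425 FPKM (SD, n = 3). MLXIPL, a carbohydrate-responsive factor known to act on lipogenic genes, fell by 1.23 and was low in both groups. ME1, a cytosolic source of NADPH, rose by 0.63, and ACSL4, a relative of ACSL3, by 0.52. The ACSL4 call was lost without any 1 of the shNAT10 libraries (adjusted p = 0.0658 to 0.0882, limma). Of 15 tested genes of glycerolipid synthesis, 7 (46.7%) were lower and none higher by limma, also at an unadjusted p under 0.05 and with voom (0 each), with a median of -0.32. DGAT2, which makes triglycerides, fell by 1.62 from 4.79 ± 0.708 to 1.48 ± 0.163 FPKM (SD, n = 3), and AGPAT3, an acyltransferase of phosphatidate, fell by 1.14.

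Fatty acid oxidation, the opposite of the chain, had 6 of 22 tested genes lower and 7 higher (27.3% and 31.8%), with a median log2 fold change of 0.00. PPARA, a nuclear receptor known to act on genes of oxidation, rose by 1.25, and SLC25A20, the carnitine carrier, by 1.15. ECI2, an enoyl-CoA isomerase, fell by 0.99, and PNPLA2, a triglyceride lipase, fell by 0.73. Without 1 library the numbers called lower ranged from 1 to 5 for the isoprenoid branch (1 without shNAT10 replicate 1, 5 without shCtrl replicate 2), from 1 to 3 for SREBP processing (1 without shCtrl replicate 3 or any shNAT10 library), and from 5 to 9 for other fatty acid synthesis (5 without shCtrl replicate 3, shNAT10 replicate 1 or shNAT10 replicate 3). They ranged from 4 to 8 for transport and storage, and the number called higher there was 2 without shCtrl replicate 2. The share of all tested genes called lower moved as well, from 13.6% without shNAT10 replicate 3 to 25.6% without shCtrl replicate 2. The share called higher was 25.4% without shCtrl replicate 2. The markers of the cell line moved as well. KRT8, KRT18, KRT19 and KRT7 fell by 0.83 to 1.18 on the log2 scale and EPCAM rose by 2.20. CDH1 lay higher in every shNAT10 library than in any control but was not called (log2 fold change 0.33, adjusted p = 0.111, limma). Of the markers of other cell types, CD14, COL1A1 and SYP fell by 0.67 to 0.75. The part of these marker changes in the values of the lipid genes was not tested.

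The acRIP-seq peaks came as a single list for each group, where a peak carries its fold enrichment (IP over input), so that no spread between replicates can be given and no test was made. A peak in shCtrl was listed for 21 of the 34 members (61.8%), against 49.6% of all tested genes, and a peak in shNAT10 for 18 (52.9%), against 47.7%. Apart, these were 15 and 14 of the 24 sterol genes (62.5% and 58.3%). For the 10 fatty acid genes they were 6 and 4 (60% and 40%). Both lists held a peak for 14 members (41.2%), against 33.7% of all tested genes. Only the shCtrl list held one for 7 members (20.6%, against 15.8%), MVK, CYP51A1, MSMO1, EBP, FADS1, ACSL3 and LPIN1. Only the shNAT10 list held one for 4 members (11.8%, against 13.9%), LSS, HSD17B7, SREBF1 and ACSS2. No peak was listed for 9 members (26.5%, against 36.5%), PMVK, TM7SF2, NSDHL, DHCR7, ACAT2, INSIG2, SCD, ELOVL6 and FADS2. None of these shares was tested. The peaks on CYP51A1 lie in a gene that shares most of its exon bases with others.

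The sterol genes held 30 peaks in each list and the fatty acid genes 17 in shCtrl and 5 in shNAT10. The lists held 16892 shCtrl and 15813 shNAT10 peaks, of which 13934 and 12951 were on tested genes. The median fold enrichment of the member peaks was 10.9 in shCtrl and 22.3 in shNAT10, against 49.3 and 45.2 for the whole lists. The whole lists include peaks on genes that were not tested, so the sets are unlike. A median over the peaks on tested genes alone was not taken. Fold enrichments are scaled within each list and do not give the amount of ac4C. Placed by midpoint on the longest coding transcript (GENCODE v29), 23 shCtrl peaks lay in the coding sequence, 16 in the 3′ UTR, 2 in the 5′ UTR and 6 off that transcript. In shNAT10 these numbers were 11, 13, 3 and 8. Peaks of the whole lists were not placed in this way, so these numbers stand without a background. On the transcript with the longest coding sequence, some peaks of SREBF2 moved from the 3′ UTR to the coding sequence. Some of FDFT1 and LPIN1 then lay off the transcript. The plot of peak midpoints along the transcripts shows the 68 peaks that lie on them.

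**Figure D4:**
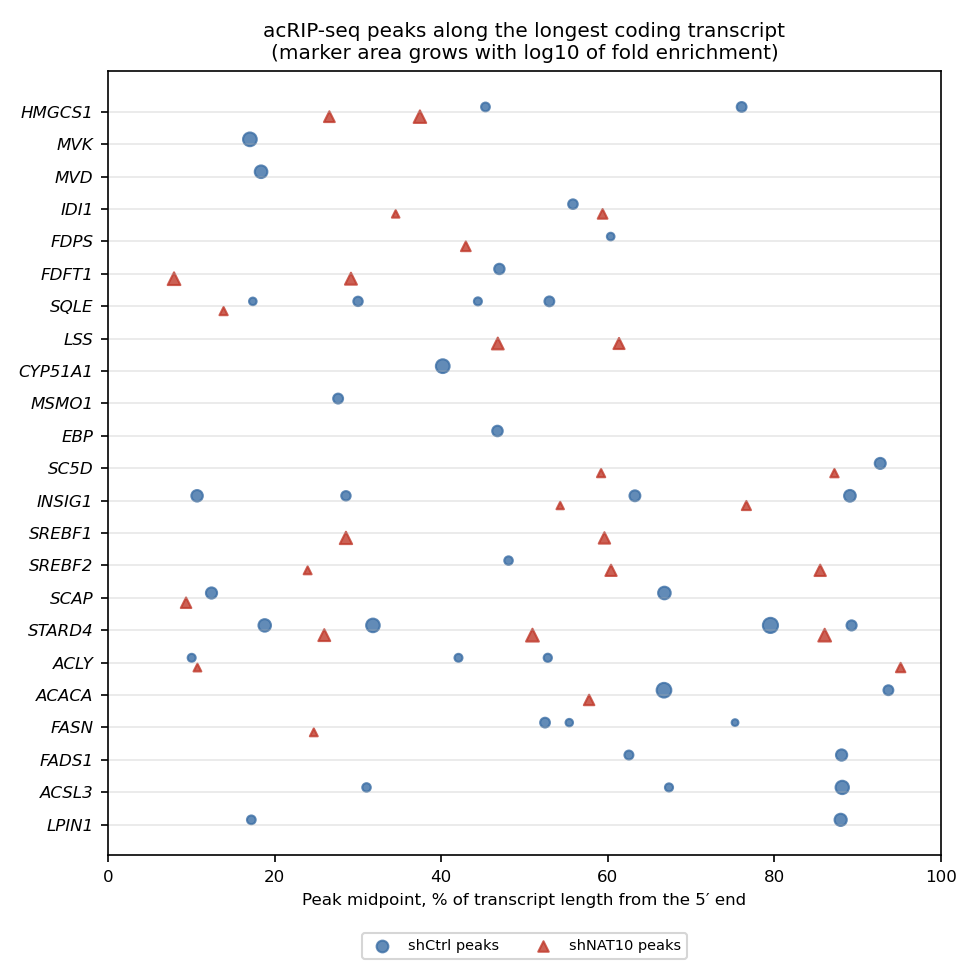
Midpoints of the 41 shCtrl and 27 shNAT10 peaks that lie on the longest coding transcript of their gene, as percent of its length from the 5′ end, for the 23 members that have such a peak; marker area grows with log10 of the fold enrichment. STARD4 carries several peaks of both groups, while MVK, MSMO1 and EBP carry a shCtrl peak each and no shNAT10 peak.

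In 8 pairs a shCtrl and a shNAT10 peak shared at least 1 base on the same strand, in IDI1, FDFT1, SQLE, SC5D, SCAP, STARD4 (2 pairs) and ACLY. These are 8 of 47 shCtrl peaks (17.0%) and 7 of 35 shNAT10 peaks (20.0%), since 1 STARD4 peak is in both its pairs. Of all peaks on tested genes, 25.5% in shCtrl and 27.3% in shNAT10 shared a base with a peak of the other list in the same way. The shared stretches were 31 to 91 bases, except in FDFT1 with 450 and ACLY with 180. Only the FDFT1 pair shared at least 50% of both peaks, with a fold enrichment of 15.8 in shCtrl and 22.0 in shNAT10. In ACLY, the shNAT10 peak of 180 bases lay wholly inside the shCtrl peak of 420 bases, in the coding sequence, with fold enrichments of 2.70 and 3.00. In STARD4 the shCtrl peak with the highest fold enrichment of all member peaks, 1560 over 450 bases of the 3′ UTR (chr5:111496751-111497200, minus strand), met a shNAT10 peak of 125 with 31 shared bases. For SCAP the pair was 29.3 and 17.6, for IDI1 8.56 and 9.35, for SQLE 2.30 and 3.42, and for SC5D 25.5 and 3.78.

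Most member peaks overlapped no peak of the other group, and this was also so for most peaks on all tested genes. Called and uncalled members are described here, ACSL3 and ACACA being the uncalled ones. INSIG1 had 4 shCtrl peaks, with fold enrichments of 7.49 to 47.2, and 2 shNAT10 peaks of 2.15 and 6.36, none overlapping. HMGCS1 had 2 shCtrl peaks of 4.77 and 9.93 and 3 shNAT10 peaks of 10.1 to 101. SREBF2 had 2 shCtrl peaks, the higher at 22.1, and 4 shNAT10 peaks, the higher at 38.3. ACSS2 had 1 peak, in shNAT10, with a fold enrichment of 237 and off the longest coding transcript. FASN had 3 shCtrl peaks, the highest at 9.84, and 1 shNAT10 peak of 2.81, all in the coding sequence. Among the genes whose peaks were listed in shCtrl only, MVK had the 1 peak of 329 and ACSL3 4 peaks up to 224, and ACACA had a shCtrl coding peak of 921 and a shNAT10 peak of 17.4 elsewhere.

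The following 3 coding stretches under peaks are shown because they carry these patterns, ACLY as the pair of peaks that share the most coding bases outside FDFT1, INSIG1 as the peak nearest the start of the transcript with the highest rise, and MVK as a peak listed in shCtrl only. They are spliced reference sequence of the longest coding transcript (GENCODE v29, GRCh38), 5′ to 3′ on the strand of the gene, not reads of the cells. Capitals mark the 180 bases inside both peaks in ACLY (chr17:41909562-41912515, minus strand, 2 introns left out), and the 181 bases of the peak in INSIG1 (chr7:155298286-155298545, plus strand) and in MVK (chr12:109579878-109586095, plus strand, 2 introns left out). Lower case is coding sequence on either side.
ACLY: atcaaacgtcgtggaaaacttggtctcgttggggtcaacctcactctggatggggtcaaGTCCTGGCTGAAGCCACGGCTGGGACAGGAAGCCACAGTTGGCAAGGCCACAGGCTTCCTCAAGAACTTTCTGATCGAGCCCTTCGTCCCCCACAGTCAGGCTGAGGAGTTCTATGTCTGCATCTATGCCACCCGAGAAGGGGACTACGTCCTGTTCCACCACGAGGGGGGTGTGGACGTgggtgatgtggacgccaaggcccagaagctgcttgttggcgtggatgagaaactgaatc
INSIG1: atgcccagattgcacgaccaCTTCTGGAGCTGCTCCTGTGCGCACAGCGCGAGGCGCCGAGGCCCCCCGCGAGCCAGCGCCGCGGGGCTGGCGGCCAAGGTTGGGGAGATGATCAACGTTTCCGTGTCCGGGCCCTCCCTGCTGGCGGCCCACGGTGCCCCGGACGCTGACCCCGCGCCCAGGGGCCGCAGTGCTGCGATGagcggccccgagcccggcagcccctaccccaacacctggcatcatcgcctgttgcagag
MVK: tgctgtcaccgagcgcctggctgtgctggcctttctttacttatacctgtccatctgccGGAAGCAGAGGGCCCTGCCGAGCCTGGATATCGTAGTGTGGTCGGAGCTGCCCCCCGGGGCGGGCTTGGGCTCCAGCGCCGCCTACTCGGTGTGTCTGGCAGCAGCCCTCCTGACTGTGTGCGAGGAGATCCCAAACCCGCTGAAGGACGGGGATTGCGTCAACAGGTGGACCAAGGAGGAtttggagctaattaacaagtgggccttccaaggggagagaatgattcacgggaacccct

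The INSIG1 peak had a fold enrichment of 38.7 and the MVK peak of 329, and neither overlapped a shNAT10 peak. With the 50% of each list that had the highest fold enrichment, 9 members had a shCtrl peak and 8 a shNAT10 peak, against 29.8% and 28.6% of tested genes, and with the 50% of lowest p-values 16 and 9, against 33.0% and 31.5%.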

How the data were processed

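RNA-seq of 3 shCtrl and 3 shNAT10 libraries of PANC-1 cells was used together with the acRIP-seq peak lists of both groups, grouped by the labels. The authors aligned and counted the reads and deposited FPKM values, 1 column per library; the submitters' processing notes name HISAT2 2, HTSeq 0.11.0, DESeq2 1.22.2 and the builds hg38 and GRCh38. The FPKM values were traced to whole reads for 100% of the 12982 tested genes (within 0.01 read), with the length of the longest transcript, and these reads entered 1 alternative. The deposited peak lists, 1 per group from pooled replicates, give the ratio of IP over input (fold enrichment) as well as the p-value of each peak and other values, the log10 of the p-value and of the false discovery rate, per the file headers. The peak caller is not given in the sources used here.

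FPKM plus a pseudocount of 0.1 was taken to log2 and tested with limma 3.58.1 (R 4.3.3, mean-variance trend, no covariate) for genes with at least 1 FPKM in at least 3 libraries. Adjusted p-values are Benjamini-Hochberg values over all tested genes, and a gene was called under 0.05; a log2 fold change beyond 1 was a second rule. Peaks overlapped when they had 1 base or more in common on 1 strand. Gene positions are from GENCODE 29, and promoters and motifs from RefSeq windows, with the window nearest to the start of the gene. The scripts were tested on simulated data. Python 3.11.15, pandas 2.3.3, NumPy 2.4.6, SciPy 1.17.1 and matplotlib 3.10.9 were used.

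The members and the lists were chosen with earlier results of these data known. All members and NAT10 are named. From each other list at most the 2 lowest and 2 highest log2 fold changes among called genes are named, some single genes not being reported here. LBR, which was not called, is named besides these. For peaks, those overlapping between groups and the highest of each member described are named. A few further peaks were named after their values were seen. The alternatives were a pseudocount of 1, no filter, a minimum of 5 FPKM, quantile normalization, median centring, TPM, a replicate block, no trend, voom on recovered reads, each library left out, stricter peak sets and a reciprocal overlap of 50%, and, chosen after seeing the data, a spline correction of each library for length and GC content.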

Additional observations from a re-analysis of the deposited data

How the results depend on the processing

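NAT10 stayed lower and called in all 16 alternatives, and HMGCS1, TM7SF2, NSDHL, INSIG1, ELOVL6 and ACSS2 kept their calls in all 16. Sterol genes called lower numbered 3 with no filter, with no mean-variance trend and with TPM (5 as reported). The shares over all tested genes with these settings are not given here, so these numbers stand without a background. The length and GC correction, chosen after seeing the data, gave 6 lower and 12 higher sterol genes (7 higher as reported), 6 lower and 1 higher fatty acid genes, and a sterol median of 0.18. The cause was not tested. Leaving out 1 library gave 3 to 6 sterol genes lower and 1 to 7 higher, 2 to 5 fatty acid genes lower and 0 to 1 higher. Over all tested genes the shares then ranged from 13.6% to 25.6% lower and from 13.7% to 25.4% higher. TPM raised the median of all tested genes from -0.01 to 0.10 on the log2 scale by its scaling, the sterol median to 0.17 and the fatty acid median to -0.012, and quantile normalization also gave a fatty acid median of -0.012. With the peaks of highest fold enrichment, 9 members had a shCtrl and 8 a shNAT10 peak, with those of lowest p-values 9 had a shNAT10 peak, and with a reciprocal overlap of 50% only 1 peak pair was shared; these sets hold fewer peaks by construction.

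Changes of sign concerned only genes that were not called as reported. They were ACSL3 (0.078), FADS2 (0.023), HSD17B7 (0.073) and MVD (0.10) with TPM, FADS2 (0.0016), MVD (0.014) and SCD (0.13) with quantile normalization, FDFT1 (-0.00033) with median centring, and LPIN1 (-0.00072) and MVD (0.22, called) with the length and GC correction. With 1 library left out, the log2 fold change ranged from -0.0098 to 0.091 for ACAT2, from -0.098 to 0.014 for ACSL3, from -0.014 to 0.13 for FADS1, from -0.029 to 0.062 for FDFT1, from -0.12 to 0.034 for HSD17B7, from -0.014 to 0.26 for LPIN1 and from -0.099 to 0.13 for MVD. Of 528 comparisons of a member under an alternative, 440 kept the direction and the side of the threshold, 51 lost the call, 17 gained it and 20 changed sign.

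Deviations of libraries with the same replicate number had correlations across genes of -0.0432, 0.0643 and 0.107. For different numbers the range was -0.122 to 0.0632. The labels do not say whether the numbers pair libraries, and these correlations cannot settle it. With the replicate block, MVK, IDI1 and SREBF2 lost their calls (adjusted p = 0.0506, 0.0679 and 0.0569, limma). This leaves 4 sterol genes lower and 5 higher and 3 fatty acid genes lower. The shares over all tested genes with the block are not given here. With 3 libraries per group and 1 peak list per group, small changes and any change of peaks cannot be separated from the spread between replicates.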
